A study of Homo sapiens with 8 samples.

Results

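Non-muscle myosin II and its regulators were examined as 10 genes in CCRF-CEM cells, an established human line of T-cell acute lymphoblastic leukaemia (T-ALL). The members were fixed by symbol: the heavy chains MYH9 and MYH10, the light chains MYL6, MYL9, MYL12A and MYL12B, the kinases MYLK, ROCK1 and ROCK2, and the phosphatase subunit PPP1R12A. All 10 were found, each with 1 probe set, among 17687 named genes and 21448 probe sets. One group of 4 samples received 1 µM OICR-9429, a small molecule that blocks the pocket of WDR5 bound by MLL-family histone methyltransferases, for 1 h and was then held for 1 h in a gel of bovine type I collagen at 1.7 mg/mL. The other group of 4 was untreated and held in the same gel for 1 h, and no solvent is mentioned for it. Cells of both groups were grown in RPMI with 10% serum and carried no other agent or engineered allele that the labels name. Samples in each group are numbered 1 to 4 as biological replicates of this 1 line and no label says whether passages or days differed. The p-values therefore cover the scatter among these samples alone, which may be technical. RNA was measured on Affymetrix arrays, and every level below is the deposited log2 value of a probe set.

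Non-muscle myosin II is a motor built from a pair of heavy chains, a pair of essential light chains and a pair of regulatory light chains. Phosphorylation of the regulatory light chain, by ROCK kinases under RHOA or by the calmodulin-dependent kinase MYLK, switches the motor on, and the myosin phosphatase, which PPP1R12A directs to myosin, switches it off. In T cells the motor pulls on cortical actin, draws in the rear of migrating cells and helps push the nucleus through narrow pores of a matrix.

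The 8 arrays paired by number, which held a median of 81.3% of a probe set's variance, against 2.51% for the treatment. The array medians lay between 6.38 and 6.46, but the arrays of number 4 had a narrower spread. Their lower quartiles were 4.68 with OICR-9429 and 4.69 untreated, against 4.52 to 4.66 on the other arrays. Their upper quartiles were 8.12 and 8.08, against 8.29 to 8.40. Bright and dim probe sets could thus differ at number 4 across the whole array, and quantile normalization was run as an alternative. Deviations from the group means correlated at 0.566 to 0.865 between the OICR-9429 and the untreated array of 1 number, and both arrays of number 4 stood apart from the rest. Of the markers of T-ALL cells, 15 of 15 lay above 4.83, the level that 95% of the 349 olfactory receptor probe sets stay under. CD3E, a chain of the T-cell receptor complex, averaged 11.82. That level is low, since a probe set at 4.83 ranked at the 27.7 percentile of all probe sets. It was also cleared by 6 of 7 smooth muscle, 4 of 6 platelet and 4 of 5 fibroblast markers. So it was by 4 of 6 myeloid and 2 of 3 B cell markers. Olfactory receptors serve here as genes that T cells are not known to use. Above the median probe set (6.45) lay 13 of the 15. In the other lists, in the order above, the counts were 1 of 7, 1 of 6, 2 of 5, 2 of 6 and 2 of 3. CD79A, of the B cell list, averaged 9.42. Of 18 heavy and light chains of skeletal, cardiac and smooth muscle, 8 lay above 4.83 and 0 above the median probe set, and MYH11, the smooth muscle heavy chain, averaged 5.58.

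The heavy chains were both bright on every array. MYH9, the heavy chain of the IIA motor, read 10.12, 9.89, 10.04 and 9.69 with OICR-9429 at numbers 1 to 4, against 10.16, 10.04, 10.11 and 9.57 in untreated cells. In each group the array of number 4 was the lowest, and the groups overlapped. MYH10, the heavy chain of the IIB motor, read 10.98, 11.49, 11.44 and 10.57 with OICR-9429, against 11.07, 11.12, 11.41 and 10.52 in untreated cells, with number 4 lowest again. On their arrays MYH9 ranked between the 91.2 and 93.8 percentiles of all probe sets and MYH10 between 96.5 and 98.8. Probe sets differ in how strongly they respond, so these levels do not say which transcript is more abundant. MYH14, the heavy chain of the IIC motor, averaged 4.44, inside the range of the olfactory receptors.

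Among light chains, 3 of 4 were bright. MYL6, the essential light chain, read 10.75, 9.52, 10.48 and 10.80 with OICR-9429, against 10.62, 9.67, 10.68 and 11.13 in untreated cells, so number 2 was lowest and number 4 highest in both groups. MYL12B, a regulatory light chain, read 11.61, 11.49, 11.44 and 11.44 with OICR-9429 and 11.51, 11.69, 11.50 and 11.46 in untreated cells. It had the narrowest spread of the 10 genes, with number means 0.14 apart, a span smaller than that of all but 2.39% of probe sets. MYL12A, its neighbour on the chromosome and nearly identical in sequence, read 10.73, 10.79, 10.88 and 10.98 with OICR-9429 and 10.59, 10.96, 10.87 and 11.03 in untreated cells. Whether probes of MYL12A and MYL12B pick up each other's transcript was not tested. MYL9, the regulatory light chain typical of smooth muscle and platelets, stood near the median probe set, at 6.4, 6.03, 6.38 and 6.68 with OICR-9429 and 6.28, 6.55, 6.4 and 6.89 in untreated cells.

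Among kinases, the ROCK probe sets varied most and MYLK was dim. MYLK, which phosphorylates the regulatory light chain under calmodulin, read 4.77, 5.41, 5.45 and 4.85 with OICR-9429 and 5.26, 5.57, 5.05 and 5.24 in untreated cells. It lay above 4.83, the upper level of the olfactory receptors, on 7 of 8 arrays and below the median probe set on every one. ROCK1 read 8.65, 9.58, 8.87 and 6.95 with OICR-9429 and 8.85, 9.36, 8.67 and 6.93 in untreated cells. ROCK2, the other RHOA-dependent kinase, read 6.42, 7.25, 6.70 and 4.23 with OICR-9429 and 6.52, 6.64, 6.45 and 3.51 in untreated cells. Both ROCK genes were lowest at number 4 and highest at number 2 in each group, and on both arrays of number 4 ROCK2 fell within the range of the olfactory receptors. PPP1R12A, the targeting subunit of myosin phosphatase, read 8.05, 8.93, 8.42 and 6.47 with OICR-9429 and 8.03, 8.55, 8.0 and 6.64 in untreated cells, with the same order of numbers at both ends.

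**Figure D1:**
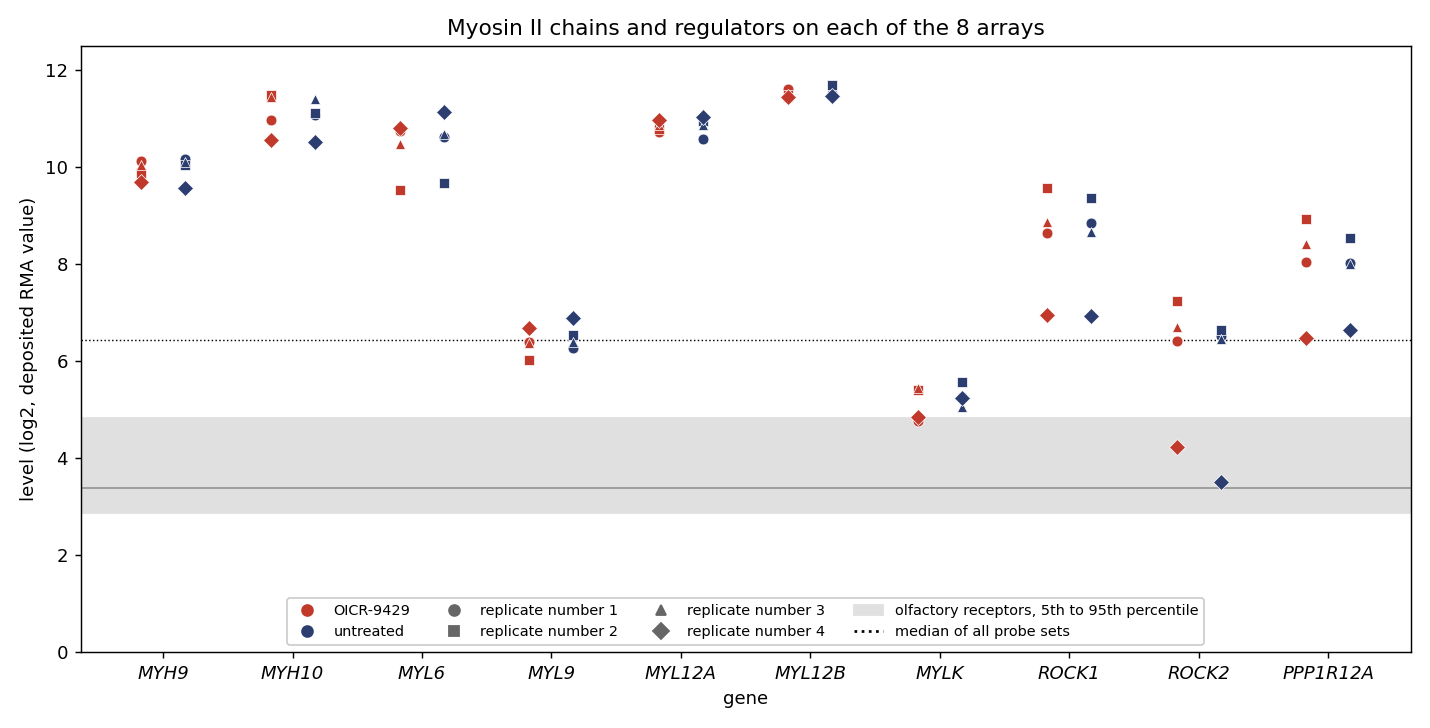
Deposited log2 level of each of the 10 genes on each array, OICR-9429 (red, left) beside untreated (blue, right), with symbols for the replicate number, the 5th to 95th percentile of olfactory receptor probe sets in grey and the median probe set dotted. ROCK1, ROCK2 and PPP1R12A drop at number 4 in both groups, and ROCK2 there reads 4.23 with OICR-9429 and 3.51 untreated, while MYL12B stays between 11.44 and 11.69.

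The bases before the annotated starts of ROCK1, ROCK2 and MYLK are shown because the ROCK genes moved together and because starts of ROCK2 and MYLK carry a CArG box, the binding motif of serum response factor, a regulator of many actin and myosin genes. Sequences are 250 bases upstream of a RefSeq start in GRCh38.p14, read on the gene's strand, which is the minus strand for all 4. The locations are chr18:21111814-21112063 for ROCK1, chr2:11345438-11345687 and chr2:11344637-11344886 for the first and the other start of ROCK2, and chr3:123620549-123620798 for MYLK. Capitals mark GC boxes (GGGCGG on either strand, CCGCCC as read here, overlapping matches included) and CArG boxes.
ROCK1: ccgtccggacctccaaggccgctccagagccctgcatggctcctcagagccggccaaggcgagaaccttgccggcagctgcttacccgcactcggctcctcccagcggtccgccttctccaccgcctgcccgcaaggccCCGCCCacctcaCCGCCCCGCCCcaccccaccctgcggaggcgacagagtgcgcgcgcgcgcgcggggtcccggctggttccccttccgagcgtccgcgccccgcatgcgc
ROCK2, first start: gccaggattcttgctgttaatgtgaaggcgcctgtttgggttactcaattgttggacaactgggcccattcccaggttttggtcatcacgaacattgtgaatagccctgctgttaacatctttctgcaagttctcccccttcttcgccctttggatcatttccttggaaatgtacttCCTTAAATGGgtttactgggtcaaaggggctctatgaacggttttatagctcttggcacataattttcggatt
ROCK2, other start: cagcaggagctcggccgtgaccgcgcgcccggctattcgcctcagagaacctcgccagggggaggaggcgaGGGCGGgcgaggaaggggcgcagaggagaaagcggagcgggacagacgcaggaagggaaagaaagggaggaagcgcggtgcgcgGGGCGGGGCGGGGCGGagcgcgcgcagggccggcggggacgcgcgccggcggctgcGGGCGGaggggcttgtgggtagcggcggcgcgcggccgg
MYLK: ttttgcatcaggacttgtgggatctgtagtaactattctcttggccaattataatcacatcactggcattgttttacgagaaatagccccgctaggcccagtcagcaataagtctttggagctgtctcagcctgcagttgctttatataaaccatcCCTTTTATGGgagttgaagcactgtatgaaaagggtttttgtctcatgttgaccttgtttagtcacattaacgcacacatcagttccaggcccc
A GC box stood before 10 of 17 starts of the 9 members with an entry, against 42.6% of 35116 starts over all genes, and a CArG box before 2 of 17, against 1.16%. The CArG boxes begin 94 bases before the start of MYLK and 73 bases before the first start of ROCK2. ROCK1 had 3 GC boxes, and the other start of ROCK2 had 5. Which start CCRF-CEM cells use is not known from the arrays, and a match of letters is a description and not a binding site. MYLK has 1 listed start here, for a gene that spans 274284 bases. Where in that span the start lies was not examined, so it may not be the start of the transcript that codes for the kinase.

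None of the 10 genes passed the threshold in OICR-9429 cells set against untreated ones. In limma, 0 of 10 were called at an adjusted p under 0.05, where 0% of all probe sets were called, and the smallest adjusted p was 1. At an unadjusted p under 0.05 the count was 0 of 10, against 0.49% of all probe sets. The values of the groups overlapped for all 10, where 0.737% of probe sets had groups without overlap. Differences were above 0 for 4 genes, where 51.7% of probe sets were, and below 0 for 6, with a median of -0.03, against 0.005 over all probe sets. None went the same way in all 4 numbers, as 12.6% of probe sets did.

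Heavy chains moved little within numbers. For MYH9, OICR-9429 minus untreated was -0.04, -0.15, -0.07 and 0.12 at numbers 1 to 4, with means of 9.94 ± 0.19 with OICR-9429 and 9.97 ± 0.27 untreated (SD, n = 4 each). For MYH10 it was -0.09, 0.37, 0.03 and 0.05, with means of 11.12 ± 0.43 and 11.03 ± 0.37 (SD, n = 4 each) in OICR-9429 and untreated cells. The mean differences were -0.04 ± 0.18 and 0.09 ± 0.26 (SE of the fit without the replicate number). Those SE and the group SDs hold the spread between numbers. With the number as a block in the fit the SE were 0.10 for MYH9 and 0.11 for MYH10.

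No light chain kept 1 direction over the 4 numbers. MYL6 differed by 0.13, -0.15, -0.20 and -0.33 and MYL9 by 0.12, -0.52, -0.02 and -0.21, each with 3 of 4 numbers below 0. MYL12A differed by 0.14, -0.17, 0.01 and -0.05 and MYL12B by 0.10, -0.20, -0.06 and -0.02. At number 1 all 4 light chains were higher with OICR-9429, and at number 2 all 4 were lower, each from 1 pair of arrays. The share of all probe sets that went the same way within those pairs was not counted, so nothing particular to light chains is read from this. The mean differences were -0.14 ± 0.36 for MYL6, -0.16 ± 0.20 for MYL9, -0.02 ± 0.16 for MYL12A and -0.05 ± 0.14 for MYL12B (SE). These SE are of the fit without the replicate number and hold the spread between numbers. With the number as a block they were, in the same order, 0.11, 0.12, 0.10 and 0.10.

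Kinases and the phosphatase subunit went both ways. MYLK differed by -0.49, -0.16, 0.40 and -0.39 at numbers 1 to 4, a mean of -0.16 ± 0.21 (SE) between readings close to the olfactory receptor range. ROCK1 differed by -0.20, 0.22, 0.20 and 0.02 and PPP1R12A by 0.02, 0.38, 0.42 and -0.17, with means of 0.06 ± 0.63 and 0.16 ± 0.55 (SE). These SE, and that of MYLK, are of the fit without the replicate number and hold the spread between numbers. With the number as a block they were 0.11 for ROCK1, 0.13 for PPP1R12A and 0.15 for MYLK. ROCK2 had the largest mean difference of the 10, at 0.37 ± 0.81 (SE without the block). Its means were 6.15 ± 1.33 in OICR-9429 and 5.78 ± 1.52 in untreated cells (SD, n = 4 each). Its values by number were -0.10, 0.61, 0.25 and 0.72, the last between readings of 4.23 and 3.51 that both lie in the olfactory receptor range.

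With the replicate number as a block in limma, ROCK2 was the 1 gene of 10 at an unadjusted p under 0.05 (0.0349), where 5.55% of all probe sets were, and its adjusted p was 0.841. Its difference with the block was 0.37 ± 0.15 (SE), and without number 4 it was 0.25, without number 2 it was 0.29 and without number 1 it was 0.53. For all 10 genes the 95% interval with the block lay within 2-fold in both directions. It ran from -0.26 to 0.19 for MYH9, from -0.16 to 0.34 for MYH10, from -0.27 to 0.18 for MYL12B and from -0.19 to 0.31 for ROCK1, and for ROCK2 from 0.03 to 0.71. These intervals are not adjusted for the number of genes.

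**Figure D2:**
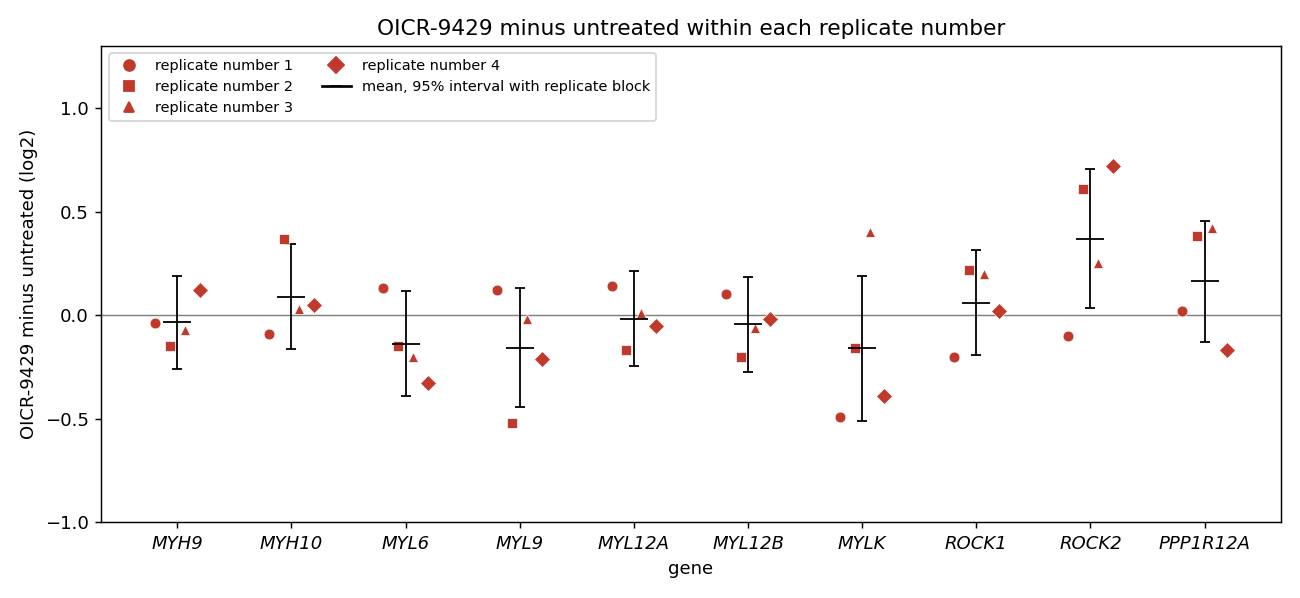
OICR-9429 minus untreated on the log2 scale within each replicate number (symbols), with the mean and its 95% interval from limma with the replicate block (black), for each gene. Each gene has at least 1 number on each side of 0, and ROCK2 has the interval that leaves out 0, from 0.03 to 0.71, with an adjusted p of 0.841 in limma.

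Replicate numbers differed far more than the groups did, as they did over all probe sets. Among the 10 genes the number means lay furthest apart for the ROCK kinases, the phosphatase subunit and MYL6. In limma with number and treatment, 5 of 10 genes passed the test of any difference between numbers. Over all probe sets 50.3% were called, so this count is at the background. They were ROCK1, ROCK2, PPP1R12A, MYL6 and MYH10, with adjusted p of 0.000182, 0.000183, 0.000351, 0.00108 and 0.0073. MYH9, MYL9, MYL12A, MYL12B and MYLK did not pass (adjusted p from 0.0509 to 0.751). Each number has 2 arrays that pair, so these tests measure how steadily the numbers differ across the 2 groups and not the spread between separate cultures. Number held 99.1% of the variance of ROCK1, 96.1% of that of ROCK2 and 96.8% of that of PPP1R12A, against a median of 81.3% over all probe sets. The number means spanned 2.53 for ROCK1 and 2.19 for PPP1R12A, wider than 98.9% and 97.7% of probe sets. For ROCK2 they spanned 3.08 as read, down to a number 4 mean of 3.87 that lies in the olfactory receptor range. Without number 4, 3 of 10 passed.

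Number 4 had lower ROCK kinases, phosphatase subunit and heavy chains, and higher MYL6 and MYL9. Against the other numbers, 5 genes were lower and 2 higher in limma, where 25.5% and 26.3% of all probe sets were. The count of higher genes is thus near the background. All 5 lower genes belong to the longest of 4 classes of genomic span, described below. In that class 36.8% of probe sets were lower at number 4, and 62.2% of those above the median level were. Among all probe sets the differences of ROCK2, ROCK1 and PPP1R12A, as read, ranked at the 0.135, 1.11 and 2.26 percentiles. Those of MYH10, MYH9, MYL9 and MYL6 ranked at 16.7, 23.9, 77.6 and 89.4, less far from the middle. ROCK2 read -2.79 ± 0.17 (SE) on the log2 scale, but its number 4 arrays lie under the upper level of the olfactory receptors, so the difference is a bound: set against that level, ROCK2 was at least 3.55-fold lower. The same limit touches every ROCK2 difference in which number 4 takes part. ROCK1 was lower by -2.06 ± 0.13 (4.16-fold) and PPP1R12A by -1.77 ± 0.15 (3.42-fold), and the adjusted p in limma were 3.54e-05 for ROCK2, 3.54e-05 for ROCK1 and 6.64e-05 for PPP1R12A. MYH10 was lower by -0.71 ± 0.13 and MYH9 by -0.43 ± 0.11 (adjusted p = 0.00221 and 0.0135). MYL6 was higher by 0.68 ± 0.13 and MYL9 by 0.45 ± 0.14 (adjusted p = 0.00265 and 0.0315). In OICR-9429 arrays alone the ROCK2, ROCK1 and PPP1R12A differences were -2.56, -2.08 and -2.0, and in untreated arrays alone -3.03, -2.03 and -1.55. MYL12A stood at 0.20, MYL12B at -0.09 and MYLK at -0.21, none of them past the threshold. Without number 2, the MYL6 difference was 0.33 with adjusted p of 0.0893 in limma, and after quantile normalization MYH9 stood at -0.24 (adjusted p = 0.109).

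Number 2 showed the opposite picture for the same regulators. ROCK1 was higher by 1.32 ± 0.13, ROCK2 by 1.31 ± 0.17 and PPP1R12A by 1.14 ± 0.15 (SE, adjusted p from 0.00125 to 0.00185 in limma), 3 of 10 genes where 15.4% of probe sets were higher. MYL6 was lower by -1.15 ± 0.13 (adjusted p = 0.00143), 1 of 10 where 11.6% were lower. Because number 4 is among the numbers it is set against, part of each difference is number 4's: without number 4 the values were 0.71 for ROCK1, 0.62 for PPP1R12A and 0.42 for ROCK2, the last with adjusted p of 0.122. Number 1 had 1 gene higher, ROCK2 at 0.67 ± 0.17 (adjusted p = 0.0319), where 10.6% of probe sets were higher and 6.14% lower, and without number 4 that value was -0.29. Number 3 had 0 of 10 called in limma, where 1.18% of probe sets were higher and 0.2% lower.

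**Figure D3:**
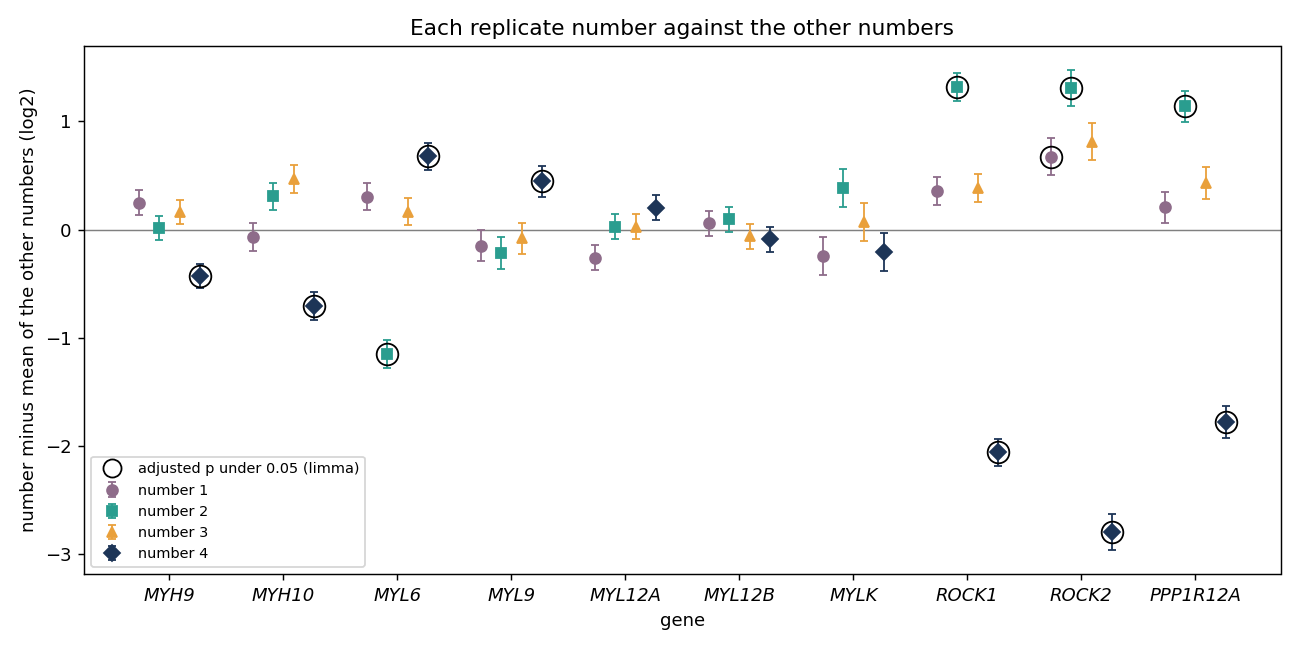
Each replicate number minus the mean of the other numbers on the log2 scale, with the SE from limma, for each gene; rings mark an adjusted p under 0.05. ROCK1, ROCK2 and PPP1R12A lie at -2.06, -2.79 (as read, with number 4 in the olfactory receptor range) and -1.77 for number 4 and at 1.32, 1.31 and 1.14 for number 2, while MYL6 lies at 0.68 and -1.15.

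The same 3 regulators followed each other from array to array. They were picked here for the differences between numbers that they share on these same arrays. Number held 99.1% of the variance of ROCK1, 96.1% of that of ROCK2 and 96.8% of that of PPP1R12A. Their correlations therefore mostly restate those differences. The correlations among other probe sets were not counted, so no link between the 3 genes is read from theirs. Over the 8 arrays, which share 4 numbers, ROCK1 correlated with PPP1R12A at 0.99 and with ROCK2 at 0.97, and at 0.93 and 0.86 over the 6 arrays without number 4. MYL6 ran against ROCK1, at -0.79 over 8 arrays and -0.99 without number 4. MYH9 correlated with ROCK2 at 0.84 over 8 arrays and at -0.95 without number 4. Of 8854 named genes with at least the median spread, those most like MYH9 were FBXW8 (r = 0.997), PRIM1, a subunit of DNA primase (0.994), SNAP29 (0.987), SMS, which makes spermine (0.986), and SEH1L, a nuclear pore protein (0.986). Without number 4 these values were 0.992, 0.964, 0.939, 0.896 and 0.913. Those most like MYLK were IFNA8 (r = 0.933), DCST1 (0.915), LTBP1 (0.902), ZNF248 (0.887) and ZNF534 (0.884). Of these, IFNA8 and DCST1 averaged below the median probe set, as did MYLK itself. IFNA8, at 4.42, lay inside the range of the olfactory receptors. Both lists hold the highest r among 8854 genes on 8 arrays that share 4 numbers, so no link is read from them.

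Genomic span, the distance from start to end of a gene with introns included, moved with the difference at numbers 4 and 2. With genes cut into 4 classes of span, the class of longest span had a median over all levels of -0.095 at number 4 and 0.11 at number 2, and the class of shortest span 0.29 and -0.14. Among probe sets above the median level, the class of longest span had a median of -0.59 at number 4 and 0.35 at number 2, and the class of shortest span 0.35 and -0.31. Past the threshold in limma, 62.2% of that longest class were lower at number 4 and 44.8% higher at number 2. Of that shortest class, 50.2% were higher at number 4 and 41.0% lower at number 2. ROCK1, ROCK2, PPP1R12A, MYH9, MYH10 and MYLK belong to the longest class and MYL6 and MYL12A to the shortest. Within their class, taken above the median level, ROCK1 and PPP1R12A ranked at the 2.97 and 6.79 percentiles for number 4, and MYH10 and MYH9 at 44.4 and 57.8. MYL6 ranked at the 1.77 percentile of its class for number 2. ROCK2 and MYLK average below that level. Transcript length was not used, and the part of span in these results was not tested.

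**Figure D4:**
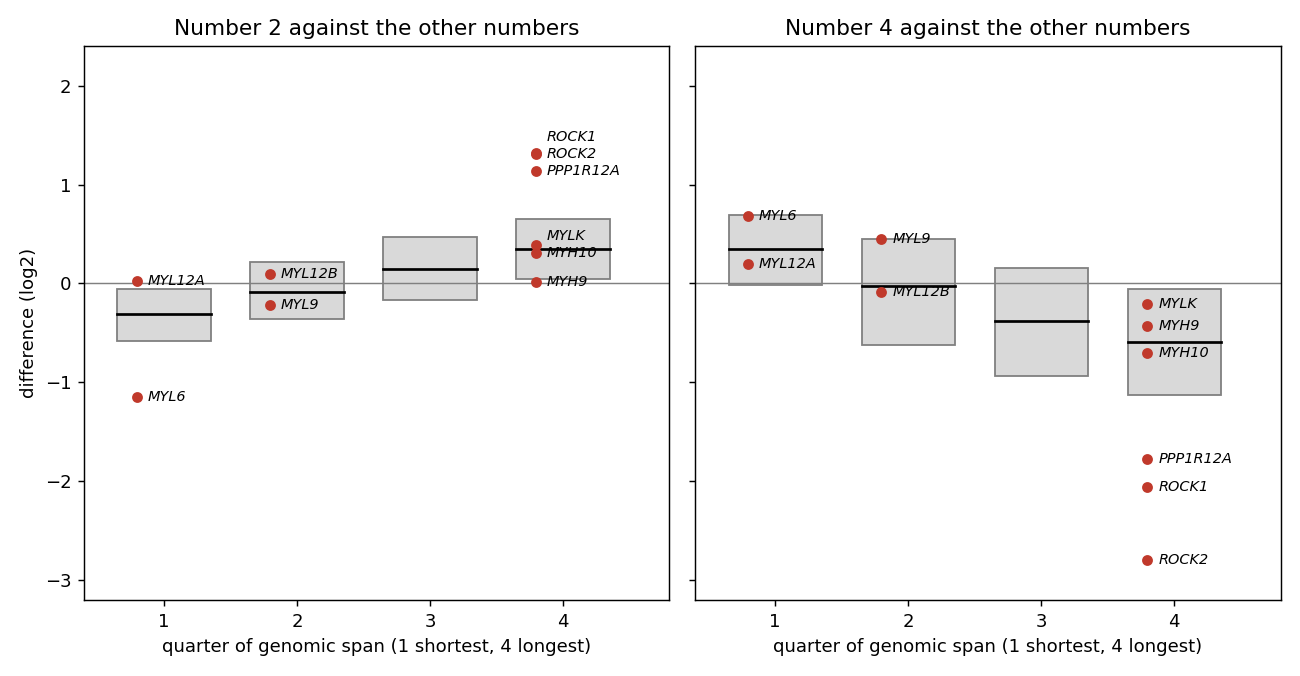
Difference on the log2 scale of number 2 (left) and number 4 (right) against the other numbers by class of genomic span (1 shortest, 4 longest); boxes span the quartiles and bars mark the median of probe sets above the median level, and points are the 10 genes, of which ROCK2 and MYLK are below that level. In the longest class the median is 0.35 at number 2 and -0.59 at number 4, and ROCK1, ROCK2 and PPP1R12A lie beyond the box in both panels.

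Some markers of other cells were higher at number 4, where 26.3% of all probe sets were higher and 25.5% lower. Of the 15 T-ALL markers, 5 were higher and 5 lower there. The smooth muscle list averaged 6.15 at number 4, against 5.55, 5.66 and 5.69 at numbers 1 to 3, with 5 of 7 markers higher and 0 lower, among them ACTA2, smooth muscle actin, at 1.14. Its array means ran from 5.48 to 6.12 with OICR-9429 and from 5.61 to 6.17 in untreated cells, and 6 of 7 markers averaged above 4.83, LMOD1 at 4.38 being the exception. The platelet list, with 2 of 6 higher and 0 lower, averaged 5.44 at number 4 and 4.98 to 5.21 at the others, and 4 of its 6 markers averaged above 4.83. Its array means ran from 4.94 to 5.27 with OICR-9429 and from 5.03 to 5.61 in untreated cells. Muscle myosin chains rose at number 4 for 7 of 18 and fell for 0, with array means from 4.35 to 4.64 with OICR-9429 and 4.27 to 4.84 in untreated cells. The fibroblast list averaged 5.78 at number 4 and 5.47 to 5.55 at the others (2 of 5 higher, 0 lower), the myeloid list 5.66 and 5.05 to 5.39 (3 of 6 higher, 0 lower), and the B cell list 7.18 and 6.88 to 7.17 (1 of 3 higher, 1 lower). MYL9 shares smooth muscle and platelets as known sources, and the part of such cells in its difference was not tested. The labels give 1 cell line for all samples. Dim probe sets read higher at number 4 on the whole array too, with lower quartiles of 4.68 and 4.69, against 4.52 to 4.66 on the other arrays. The part of this in the marker lists was not tested. In bulk samples, fewer cells of a type and less RNA per cell cannot be told apart.

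The wider actomyosin pathway was read from a list of 83 genes, of which 72 were measured. With OICR-9429, 0 of 72 passed in limma, 37 lay above 0 and 35 below, with a median of 0.0025, and the count at an unadjusted p under 0.05 was 0 without and 3 with the replicate block, against 0.49% and 5.55% of all probe sets. The highest differences were those of DIAPH2, a formin, at 0.24 ± 0.34, DAPK2, a light chain kinase, at 0.21 ± 0.25, and MYO18B, an unconventional myosin, at 0.21 ± 0.25 (SE). The lowest was that of RND3, which inhibits ROCK1, at -0.38 ± 0.18 (SE). CDC42BPG, a kinase of the MRCK family, followed at -0.30 ± 0.24, and MYLK3, the cardiac light chain kinase, at -0.23 ± 0.15 (SE). The SE of these highest and lowest differences are of the fit without the block. RND3 read 4.97, 5.02, 4.84 and 4.76 with OICR-9429, against 5.27, 5.13, 5.02 and 5.68 in untreated cells, so the highest OICR-9429 reading met the lowest untreated one at 5.02. RND3, CDC42BPG and MYLK3 were the 3 at an unadjusted p under 0.05 with the block (0.0318, 0.0269 and 0.0485), and their adjusted p in limma was 0.841. Each was lower with OICR-9429 in 4 of 4 numbers, but they were named for their low differences. MYO18B and DAPK2 were higher in 4 of 4, and 12.6% of all probe sets went 1 way in all 4 numbers. MYLK3 read under 4.83 on every array and CDC42BPG on all but 2. RHOA, at 11.94 on average, differed by -0.04.

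Between numbers, 45 of 72 wider genes passed the test of any difference, where 50.3% of all probe sets did, and 18 did without number 4. At number 4, 21 of 72 were higher and 21 lower in limma, where 26.3% and 25.5% of all probe sets were, so these counts lie near the background. CDC42BPA, an MRCK kinase that phosphorylates the regulatory light chain as ROCK does, read 4.45 with OICR-9429 and 4.13 untreated at number 4, under the upper level of the olfactory receptors, and set against that level it was at least 2.53-fold lower than at the other numbers (adjusted p = 7.58e-05 in limma). RDX, which ties actin to the membrane and is a ROCK substrate, was lower by -1.59 ± 0.14, and ARHGAP5 by -1.40 ± 0.14 (SE). The highest were RHOC at 1.17 ± 0.11, PPP1R14A, an inhibitor of myosin phosphatase, at 1.13 ± 0.23, and UNC45A, a myosin chaperone, at 0.95 ± 0.13 (SE). RHOA stood at -0.07 and did not pass.

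At number 2, 14 of 72 wider genes were higher and 14 lower, where 15.4% and 11.6% of all probe sets were. The highest were CDC42BPA at 1.36 ± 0.16, ECT2 at 1.13 ± 0.16, and ARHGAP5 at 1.07 ± 0.14 (SE). The lowest were ACTB, the cytoplasmic beta actin, at -1.34 ± 0.14, S100A4, which binds the MYH9 heavy chain, at -1.16 ± 0.13, and PPP1R14B, a phosphatase inhibitor, at -0.79 ± 0.11 (SE). At number 1, 12 were higher and 6 lower, where 10.6% and 6.14% of all probe sets were, with PPP1R14B at 1.18 ± 0.11, MYLK2, the skeletal muscle light chain kinase, at 1.15 ± 0.13 and LIMK1, a kinase activated by ROCK, at 0.99 ± 0.11 (SE) at the top. RND1 at -0.90 ± 0.14, ARHGEF12 at -0.81 ± 0.20 and MYO18B at -0.77 ± 0.11 (SE) were at the bottom. Number 3 had 0 of 72 called.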

How the data were processed

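The deposited table holds 1 log2 expression value per probe set and array, for 21448 probe sets and 8 arrays. Per the submitters' processing notes, the authors used RMA and Transcriptome Analysis Console, and the GeneChip WT PLUS kit served for labelling, per the labels' protocols. Versions, filters and the genome build are not given in those sources. Signal over background and scan batch were not examined, and precision is limited by the number of arrays. Names came from the platform annotation of probe sets, with symbols and spans from RefSeq (GRCh38.p14) by gene ID, and 17709 had 1 symbol, 0 several and 3739 none. A gene with several probe sets was given by the one with the highest mean.

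Groups were compared with limma 3.58.1 (R 4.3.3; lmFit, eBayes, two-sided) on all 8 arrays without a covariate, and numbers with number and treatment in the model. Benjamini-Hochberg adjustment ran over all probe sets, at a threshold of 0.05. Same-numbered arrays deviated together (r = 0.696, 0.748, 0.566 and 0.865, all over 0.1). The highest r of each OICR-9429 array with an untreated array of another number was 0.129, 0.216, 0.212 and -0.470. The numbers, taken from the sample titles, thus pair the samples, and number was added as a block in a further fit. Members and lists were chosen with earlier results of these data known. Named were all members, the 3 highest and 3 lowest wider genes by OICR-9429 difference and, past the threshold, for each number, and the 5 genes most like MYH9 and MYLK. The fits were also run on simulated data with independent errors, whose outcome is not given here, and no result above rests on it. Alternatives were array centring, quantile normalization, trend and robust variance, a level filter, a model without treatment, and leaving out each number.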

Additional observations from a re-analysis of the deposited data

Results flagged for a closer look

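In 60 groups of 4 arrays, those of the 10 members and of the named genes of the wider pathway, 6 had a single array well away from the rest. Chance gives about 1 in 20 for groups not picked by their values, which does not hold for the 40 groups of wider genes, since those were named for extreme differences. Of the 20 member groups, 1 did: ROCK2 read 3.51 in untreated replicate 4, against 6.45 to 6.64 in the other untreated arrays. DIAPH2 read 6.57 in untreated replicate 4 (the others 7.87 to 8.02) and CDC42BPG 5.38 in untreated replicate 4 (the others 4.58 to 4.71). MYO18B read 5.79 in OICR-9429 replicate 1 (the others 6.42 to 6.52) and MYLK2 read 6.46 there (the others 5.24 to 5.36). MYLK3 read 4.27 in OICR-9429 replicate 2, against 3.91 to 3.93 in the other OICR-9429 arrays.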

How the results depend on the processing

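The count of called genes for OICR-9429 was 0 for the 10 members, the 72 wider genes and all probe sets under every alternative run, the replicate block included; with the block, and each number left out in turn (added after the data were seen), it was 0 too, and the block changed no call. Differences near 0 turned sign: over leaving out each number, MYH9 ran from -0.087 to 0.0033, MYH10 from -0.0033 to 0.15, MYL12A from -0.07 to 0.033 and MYL12B from -0.093 to 0.0067, and MYL12A was 0.0075 after array centring. Leaving out number 4 took the genes that differed between numbers from 10791 to 2979 probe sets, from 5 to 3 members and from 45 to 18 wider genes; leaving out other numbers gave up to 10394, 5 and 41. At number 1 the members called were 0 in the model without treatment, 5 with trend and robust variance and 1 to 3 when a number was left out. At number 3 they were 2 above the median level, 3 with trend and robust variance and 0 to 4 when a number was left out. MYH9 at number 2 was -0.02 after centring, -0.054 after quantile normalization and -0.14 to 0.11 over left-out numbers, and MYL12A there was -0.0083 after centring and -0.065 to 0.11. Over left-out numbers the values at number 1 ran from -0.34 to 0.10 for MYH10, -0.088 to 0.60 for MYL6, -0.25 to 0 for MYL9, -0.37 to 0.90 for ROCK1, -0.29 to 1.25 for ROCK2 and -0.44 to 0.66 for PPP1R12A. At number 3 they ran from -0.25 to 0.44 for MYL6, -0.17 to 0.075 for MYL9, -0.065 to 0.11 for MYL12A, -0.018 to 0.22 for MYLK, -0.34 to 0.93 for ROCK1, -0.13 to 1.41 for ROCK2 and -0.18 to 0.91 for PPP1R12A. At number 4 the lower values of ROCK1, ROCK2, PPP1R12A and MYH10 were past the threshold under every alternative run. Each member had 1 probe set, so the choice between probe sets could not be varied. The causes were not tested, and signal over background, which limits MYLK and ROCK2, is not known.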
